A study of Mus musculus with 4 samples.

Results

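The 9 genes Scarb1, Star, Cyp11a1, Fdx1, Hsd3b1, Hsd3b6, Cyp17a1, Hsd17b3 and Insl3 carry the synthesis of testosterone in Leydig cells, with 1 hormone of these cells beside it. They were taken by symbol from the 28692 genes of the count matrix, and all 9 were found. Their levels are described in Leydig-like cells, together with the small amount of their RNA that turned up in droplets of other testis cells.

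The data are single-cell RNA counts from testes of C57BL/6 mice at postnatal day 63. By the labels, 2 samples were Phf7 f/f and another 2, named Phf7 tKO, were Stra8-Cre:Phf7 f/f. Every animal therefore carries floxed Phf7, and Stra8-Cre is a driver known to act in germ cells. The deposited matrix pools 4 libraries, told apart by barcode suffixes 1 to 4, and no label ties a suffix to a sample, so the genotypes were not compared and each library is given as a value.

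Testosterone is made from cholesterol. Scarb1 takes up cholesterol from lipoproteins, Star moves it into mitochondria, and Cyp11a1 cleaves its side chain with electrons passed on by the iron-sulfur protein Fdx1. The product leaves the mitochondrion and is converted in turn by a 3-beta-hydroxysteroid dehydrogenase (Hsd3b1 or Hsd3b6), by Cyp17a1 and by Hsd17b3. Insl3 is a peptide hormone that Leydig cells secrete and is widely used to mark them in the testis.

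After a filter of at least 500 genes and at most 10% mitochondrial counts, 29968 of 32273 barcodes were kept, with 6958 to 7941 cells and 43254189 to 49165177 counts per library. A count is 1 unique molecular identifier (UMI), that is 1 captured 3' end, so levels do not scale with transcript length. Levels are CPM, the gene's summed UMI over all UMI of the same cells on a counts-per-million scale. Cells were clustered without the 9 genes, and 665 cells in 2 clusters were called Leydig-like from markers such as Akr1cl, Klk1b21 and Klk1b27. These were 2.22% of kept cells (exact Clopper-Pearson 95% interval 2.06% to 2.39%), with 187, 98, 190 and 190 cells in libraries 1 to 4. The deep cluster had 326 cells with a median of 7704 UMI and 7.43% mitochondrial counts, and the shallow cluster had 339 cells with 958 UMI and 0.485%. At least 3 of the 8 Leydig markers were found in all 326 deep cells but in 152 of the 339 shallow cells (44.8%). The name thus rests on fewer markers per cell in the shallow cluster. Libraries shared 497 barcode sequences, and 18 Leydig-like cells carried one of them. Phf7, the floxed gene, stood at 78.3, 477, 639 and 106 CPM in libraries 1 to 4, and no library was assigned to a genotype by it.

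All 9 genes were higher in Leydig-like cells than in all other kept cells, but they fell into 7 genes found almost nowhere else and 2 genes, Fdx1 and Scarb1, with most of their RNA elsewhere. The share of a gene's UMI that lay in Leydig-like cells was 98.7% for Insl3, 97.8% for Hsd17b3, 97.6% for Hsd3b6, 97.4% for Hsd3b1, 97.3% for Cyp17a1, 95% for Cyp11a1 and 94.5% for Star. It was 24.9% for Fdx1 and 8.79% for Scarb1. Leydig-like cells themselves held 1.65% of all UMI.

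In order of level, the Leydig-like cells had 3731 CPM of Cyp17a1 (exact Poisson interval 3663 to 3800), 3188 of Hsd3b6 (3125 to 3252) and 2400 of Insl3 (2345 to 2455). Cyp11a1 followed at 1871 (1823 to 1920), Fdx1 at 1720 (1674 to 1767), Hsd17b3 at 776 (745 to 808), Star at 654 (625 to 683), Hsd3b1 at 443 (420.2 to 468) and Scarb1 at 202 (186 to 218). No intervals of neighbours overlapped, but they cover counting error only. Across libraries some levels crossed. Insl3 lay above Cyp17a1 in library 2 and above Hsd3b6 in libraries 2 and 3, while in library 1 only Scarb1 was lower. Fdx1 lay above Cyp11a1 in library 2, and Star and Hsd17b3 were level in library 4, at 707 and 706 CPM. The transporter Scarb1 was lowest in every library.

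Along the pathway, the levels in Leydig-like cells of libraries 1 to 4 were close for most enzymes. Scarb1, which takes up cholesterol, stood at 160.1, 207, 232 and 203 CPM, with library 1 lowest. Star, which brings cholesterol into mitochondria, stood at 681, 556, 624 and 707 CPM, with library 2 lowest. For the first enzyme, Cyp11a1, the 4 levels were 1710, 1595, 2120 and 1896 CPM, and library 3 was highest. Its electron donor Fdx1 had 1658, 2022, 1687 and 1655 CPM, and library 2 stood above the other 3. Hsd3b1 had 419, 384, 554 and 387 CPM, again with library 3 highest, whereas Hsd3b6 had 3239, 3005, 2880 and 3526 CPM, with library 3 lowest. Hsd17b3, which makes testosterone in the last step, had 785, 789, 836 and 706 CPM, with library 4 lowest.

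In GRCm38 (GENCODE M21) the genes on the plus strand are Star at chr8:25806555-25815982 and Cyp11a1 at chr9:58006411-58027023, besides Insl3, which is placed with its values. On the minus strand are Cyp17a1 at chr19:46667165-46673172, Hsd3b1 at chr3:98852194-98859794, Hsd3b6 at chr3:98805504-98814443 and Hsd17b3 at chr13:64058266-64089230. The other two minus-strand genes are Fdx1 at chr9:51943306-51963556 and Scarb1 at chr5:125277087-125341094. Cyp11a1 shares 1041 bases with the noncoding gene Gm17322 on the same strand.

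The log2 ratio of CPM, Leydig-like over all other kept cells, was largest for Insl3 at 12.12, which ranked 1 of 16960 genes with at least 50 UMI. It was 11.39 for Hsd17b3, 11.28 for Hsd3b6, 11.10 for Hsd3b1, 11.06 for Cyp17a1, 10.15 for Cyp11a1, and for Star its interval ran from 9.73 to 10.28. Fdx1 had a log2 ratio of 4.31 and Scarb1 one of 2.53. A gene was called when the ratio was at least 2-fold in the pool and had the same direction in each of the 4 libraries. No test was run over the libraries, whose samples are not known. By this rule all 9 genes were higher, against 30% of all 16960 genes, and 31.5% of genes were lower. Scarb1 lost its call with the shallow cluster alone, at 66.9 against 35 CPM and higher in 3 libraries, and with at most 5% mitochondrial counts, at 76.4 against 34.6 CPM. The median log2 ratio of the 9 was 11.06, and that of all genes tested was 0.11.

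**Figure D1:**
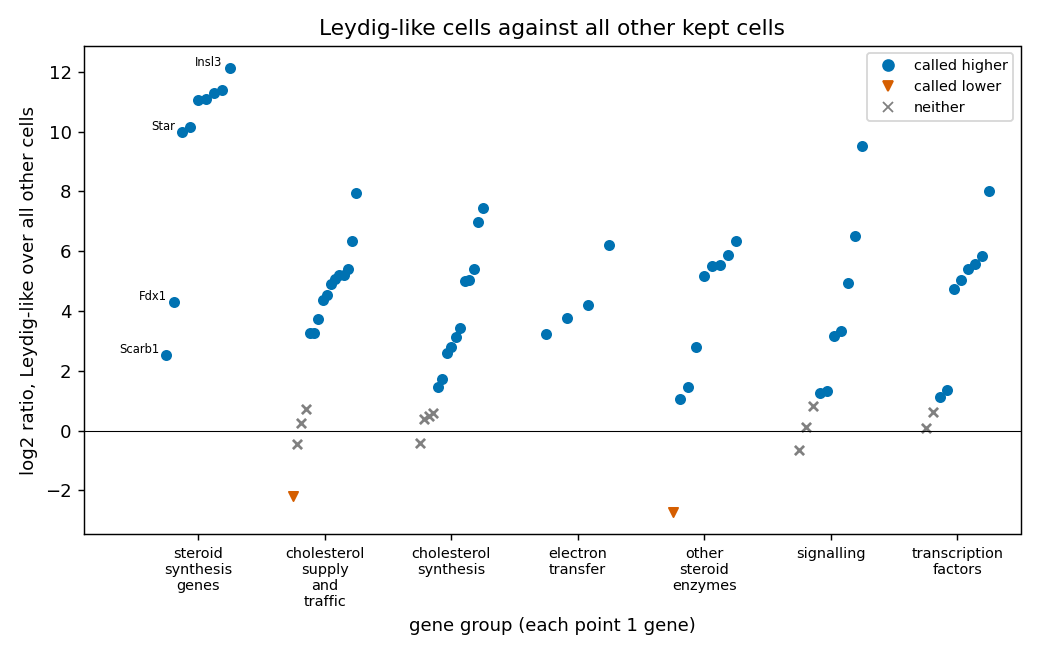
Log2 ratio of CPM in Leydig-like cells over all other kept cells (vertical axis) for the 9 steroid synthesis genes and for the tested genes of 6 related groups (horizontal axis), each point 1 gene, with colour and shape giving the call. Insl3 is highest at 12.12, Fdx1 and Scarb1 lie at 4.31 and 2.53.

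The genes around the pathway were mostly higher in the same cells than in all other kept cells. Of 74 genes in a list of cholesterol supply, cholesterol synthesis, electron transfer, other steroid enzymes, signalling and transcription factors, 64 could be tested, 50 were higher, 2 lower and 12 neither. Their median log2 ratio was 3.59. Cholesterol supply had 12 of 16 higher and 1 lower, cholesterol synthesis 11 of 15 higher, electron transfer 4 of 4, other steroid enzymes 8 of 9 with 1 lower, signalling 7 of 10 and transcription factors 8 of 10. The list was chosen with these cells in mind, and the counts describe it only.

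Among the largest log2 ratios in the list were those of Mrap, an accessory protein of the corticotropin receptor, at 9.51, and of Nr5a1, a transcription factor of steroid-making cells, at 8.01. Abca1, which exports cholesterol, had 7.94, and Msmo1, an enzyme of cholesterol synthesis, had 6.96. Igf1r, a growth factor receptor, had 6.50, and Stard5, a sterol carrier, and Hsd17b10, a mitochondrial dehydrogenase, each had 6.35. At the other end, Lipe, a lipase that frees cholesterol from its esters, was lower at -2.18, and Cyp19a1, the aromatase, was lower at -2.72 (-8.03 to -0.24) with 1 UMI in Leydig-like cells. Without library 1, 1 gene of the list was lower instead of 2. Pde8a (-0.65), Acbd3 (-0.45), Fdft1 (-0.40), Gata6 (0.08), Prkar1a (0.12) and Plin2 (0.27) were neither. The adrenal enzymes Cyp11b1 and Cyp11b2 had 0 UMI in Leydig-like cells, which allows up to 3 UMI, while Cyp21a1, the 21-hydroxylase of the adrenal cortex, had 41 UMI and a log2 ratio of 5.87.

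Against Sertoli-like, mesenchymal-like and macrophage-like cells, each taken alone, the 9 genes were also higher, which did not hold for Scarb1 beside endothelial-like cells, at 202 and 546 CPM. The background of genes called higher was 28.4% against Sertoli-like, 13.6% against interstitial mesenchymal-like and 23.5% against macrophage-like cells. The median log2 ratio of the 9 was 8.53, 7.33 and 7.60 in these comparisons. For Star the log2 ratio was 7.10 over Sertoli-like and 5.01 over mesenchymal-like cells, and macrophage-like cells held 2 UMI of it. For Scarb1 it was 2.21, 2.81 and 2.45 over the 3 classes. The pathway list had 40 of 58 tested genes higher and 2 lower against Sertoli-like cells. Against mesenchymal-like cells 27 of 52 were higher and 6 lower, and against macrophage-like cells 34 of 52 and 4. The background of genes called lower was 36.8%, 18.9% and 23% in this order. Of the transcription factors in the list, 1 of 7 tested was higher and 4 were lower against the mesenchymal-like cells.

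**Figure D2:**
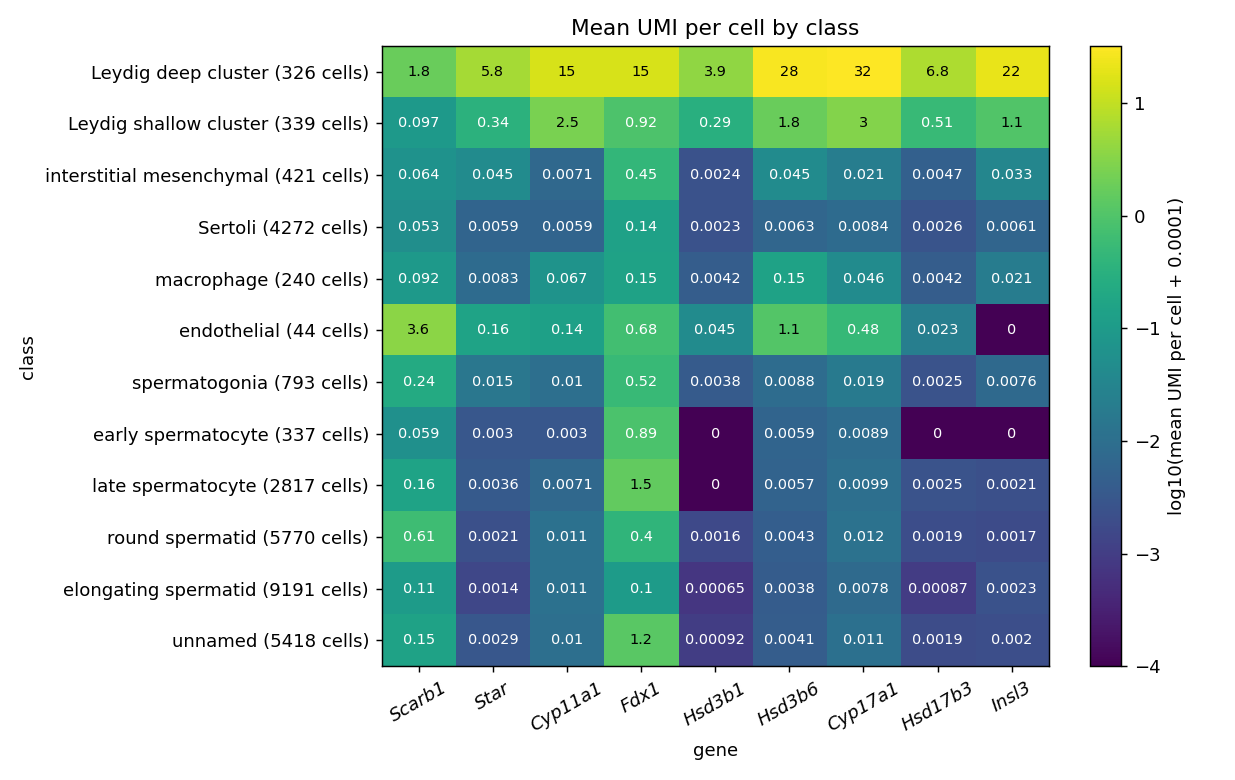
Mean UMI per cell of each of the 9 genes (columns) in each class of kept cells (lines, with the number of cells), printed in the boxes and coloured on a log10 scale. Insl3 has 0 UMI in endothelial-like and early spermatocyte-like cells, and Scarb1 is higher per cell in endothelial-like cells than in the deep Leydig cluster.

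Insl3 differed between libraries far more than the enzymes did. In Leydig-like cells of libraries 1 to 4 it stood at 315, 3654, 3218 and 2674 CPM, from 238, 1677, 2899 and 2550 UMI. Library 1 was low, and the other 3 libraries did not come within 5-fold of it. The ratio of the highest to the lowest library was 11.6. With 5 CPM added to every level it was 11.4 and ranked 3 of 2484 genes with at least 200 UMI, where the median gene had 1.27. For the other 8 genes the ratio without that addition ran from 1.18 for Hsd17b3 to 1.45 for Scarb1. With 5 CPM added, only 2 genes spread more, the serpins Serpina3g and Serpina3a. In the deep cluster Ly6k was above Insl3 as well, and Insl3 ranked 4 of 1977 genes. The serpins and Ly6k were singled out after their values were seen.

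Insl3 was the 1 gene of 2484 that was more than 5-fold lower in library 1 than in each of the other 3, with 5 CPM added to every level. The share called by this rule in library 1, 0.0403%, is Insl3 itself and so is no separate background. By the same rule 1 gene was low in library 2, and none was in libraries 3 and 4. Library 1 was lowest in both clusters. The deep cluster had 359.6, 4007, 3651 and 3002 CPM of Insl3 in libraries 1 to 4, and the shallow cluster had 125, 1084, 1030 and 858. The low level was spread over the cells of library 1. Its 82 deep cells had a median of 2 Insl3 UMI and a highest value of 11, and 13 had none. The deep cells of libraries 2, 3 and 4 had medians of 30.5, 28 and 24 UMI, and of these cells 1, in library 4, had none. After thinning each cell to 1000 UMI, an Insl3 UMI was found in 25.6% of deep cells of library 1 and in 100%, 94.7% and 95.8% of those of the others. The levels of Cyp17a1 in the same libraries were 3974, 3291, 3519 and 3951 CPM, with library 1 the highest of the 4. No source used here names the animal or genotype of library 1, so animal and library cannot be told apart. By the labels each genotype has 2 samples, while only library 1 of the 4 was low. The part of genotype was not tested.

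**Figure D3:**
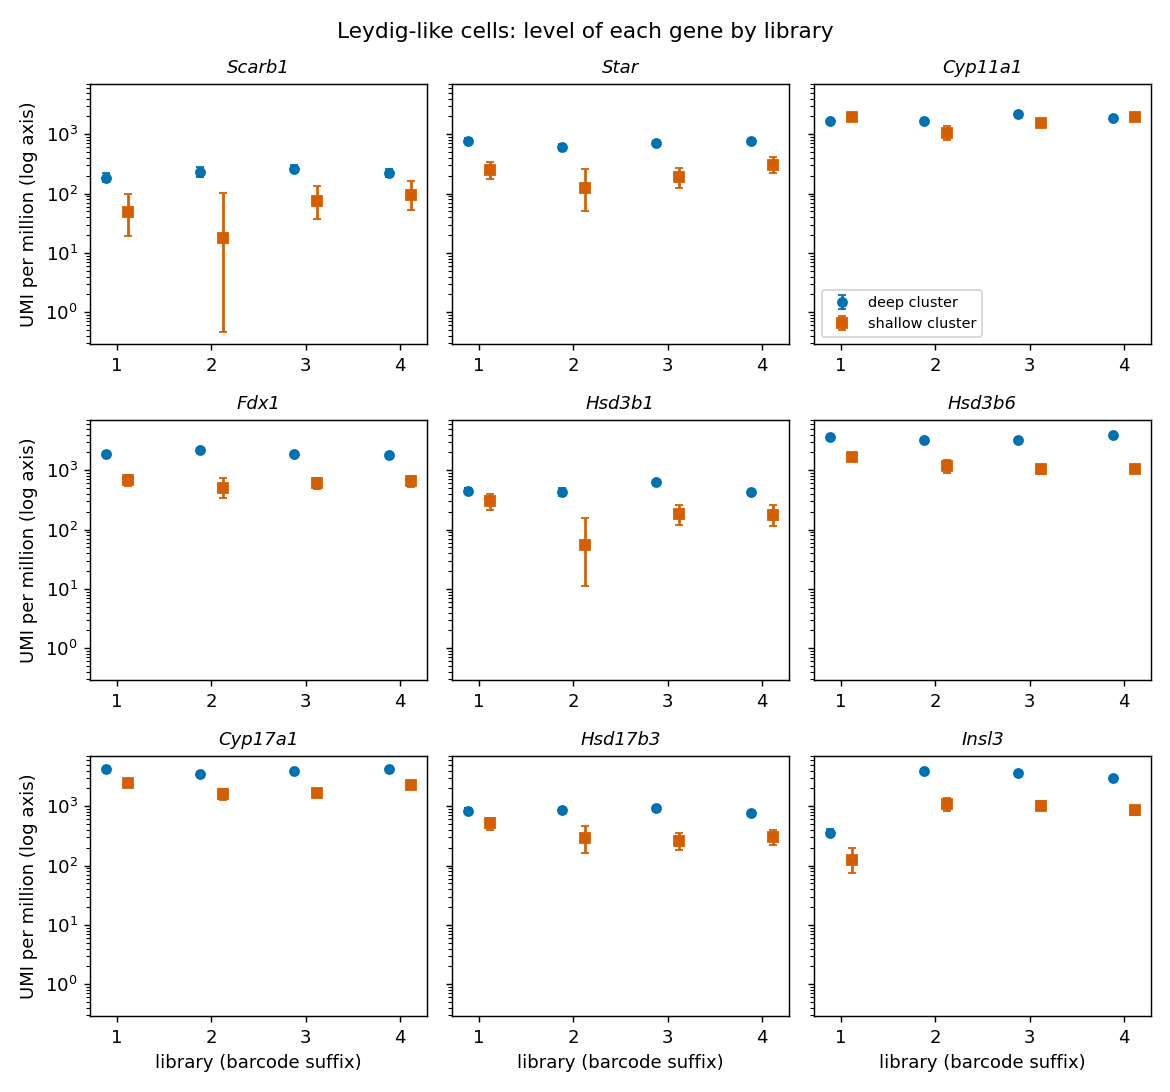
Level of each gene in CPM (log axis) in the deep (circles) and shallow (squares) Leydig-like clusters of libraries 1 to 4, with exact Poisson 95% intervals. Insl3 in library 1 stands at 359.6 and 125, below the other 3 libraries in both clusters.

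Insl3 (ENSMUSG00000079019) lies on chromosome 8 at chr8:71689214-71690575 of GRCm38, plus strand, wholly inside the gene Jak3 on the same strand, which ends at the same base. Of the 623 exon bases of Insl3, 404 (64.8%) are also exon bases of Jak3, and no source used here says how reads in them were counted. Jak3, a kinase of cytokine receptors, had 34.4, 37, 43.3 and 50.3 CPM in Leydig-like cells of libraries 1 to 4. These levels rest on 26, 17, 39 and 48 UMI. In the deep cluster library 2 was lowest, at 37.2 CPM against 40.9 in library 1. The stretch before the Insl3 gene start is shown because this gene had both the highest ratio and the widest spread of the 9. It is RefSeq sequence of GRCm38.p6, chr8:71689002-71689213, plus strand, read 5′ to 3′, and holds no annotated Jak3 exon base. Capitals mark the Nr5a1 core motif on either strand, with the letters CAAGGTC, or with the variant form CAAGGCC.
Insl3: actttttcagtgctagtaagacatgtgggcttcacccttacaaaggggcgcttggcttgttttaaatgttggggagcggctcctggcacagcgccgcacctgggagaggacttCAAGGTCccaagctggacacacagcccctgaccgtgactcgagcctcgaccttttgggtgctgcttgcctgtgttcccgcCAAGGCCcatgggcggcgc
These letters occurred at 2 places, starting 99 and 19 bases before the end of the stretch. RefSeq gave 250-base promoter windows for 6 of the 9 genes, with 7 windows in all, and Insl3 had the 1 window with this motif. It occurred in 8.28% of 32851 windows of that length in the genome. The longer forms, CAAGGTCA and the variant CAAGGCCA, which contain the shorter ones, were in none of the 7 windows and in 3.28% of all windows. A match of letters is a description and was not measured as binding.

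Hsd3b6 and Hsd3b1 encode the same enzyme step and lie side by side on chromosome 3. Hsd3b6 was the more abundant form, with 7.19 UMI for each Hsd3b1 UMI in Leydig-like cells (exact binomial interval 6.79 to 7.61). The ratio was 7.72, 7.84, 5.2 and 9.11 in libraries 1 to 4. Library 3 was lowest, with an interval of 4.72 to 5.73 that lay below those of the other 3 libraries, and without it the ratio was 8.34. The longest transcripts of the pair were identical at 80.2% of bases, and their last 300 bases, where a 3' method reads, at 70.3%. A split of reads between the pair by the counting was not tested.

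Within the deep cluster the pair was not used evenly. Hsd3b6 had a median of 27 UMI per cell, yet 34 of 326 cells had none, while Cyp17a1, with a median of 24.5 UMI, was at 0 in 6 cells. The correlation of log2(CPM + 1) between Hsd3b1 and Hsd3b6 over these 326 cells was -0.27, the lowest of the 36 pairs of the 9 genes, whose median was 0.12. It was -0.35, -0.22, -0.16 and -0.31 in libraries 1 to 4. Cells of a library share its depth and preparation, and these values describe the cells only. The highest correlation of the 36 was 0.34, between Cyp11a1 and Cyp17a1.

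In summed counts, cells with little Hsd3b6 held more Hsd3b1. In the 34 deep cells without Hsd3b6, Hsd3b1 stood at 1318 CPM (1177 to 1470), against 817 (679 to 975) in the 24 cells with 1 to 5 Hsd3b6 UMI, 397 (315 to 495) in 31 cells with 6 to 15, 554 (503 to 608) in 101 cells with 16 to 30 and 253 (225 to 283) in 136 cells with more. The level was highest in the cells without Hsd3b6 and lowest in those with most of it, and the fourth group lay above the third. The median cell of the 5 groups held 9, 1, 1, 2 and 1 Hsd3b1 UMI. Cells with any Hsd3b1 numbered 30 of 34, 13 of 24, 17 of 31, 65 of 101 and 88 of 136. The level of the second group was thus set by part of its cells, and its median cell was not above those of the later groups. Cells with 5 Hsd3b6 UMI or fewer numbered 17, 8, 24 and 9 in libraries 1 to 4, and 17 more cells lay just above that limit at 6 to 10 UMI. In these cells Hsd3b1 was at 992, 1036, 1133 and 1455 CPM in the 4 libraries, above the 312, 333, 496 and 340.2 of the other deep cells.

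Of the other genes, Fdx1 stood at 1924 CPM in the 58 cells with little Hsd3b6 and at 1930 in the other 268. Cyp11a1 stood at 2105 (1964 to 2253) and 1864 (1807 to 1922). Cyp17a1 and Star lay the other way, at 3431 and 4157 CPM and at 554 and 767 CPM, with intervals that did not overlap. Cyp21a1, the 21-hydroxylase, had 24 UMI in the 58 cells and 15 in the other 268, or 61 (39.1 to 90.8) and 6.88 (3.85 to 11.3) CPM. These UMI lay in 9 of the 58 cells and in 10 of the other 268, so few cells set both levels. Cyp21a1 was higher in the 58 cells in libraries 1, 3 and 4, and at 0 in the 8 such cells of library 2. In library 1 it stood at 16.4 against 10.2 CPM. The summed level of the 8 Leydig markers was 12904 CPM in the cells without Hsd3b6 and 13101 in the cells with more than 30, and all 8 were detected in the cluster. The limit of 5 UMI was chosen after the values were seen.

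**Figure D4:**
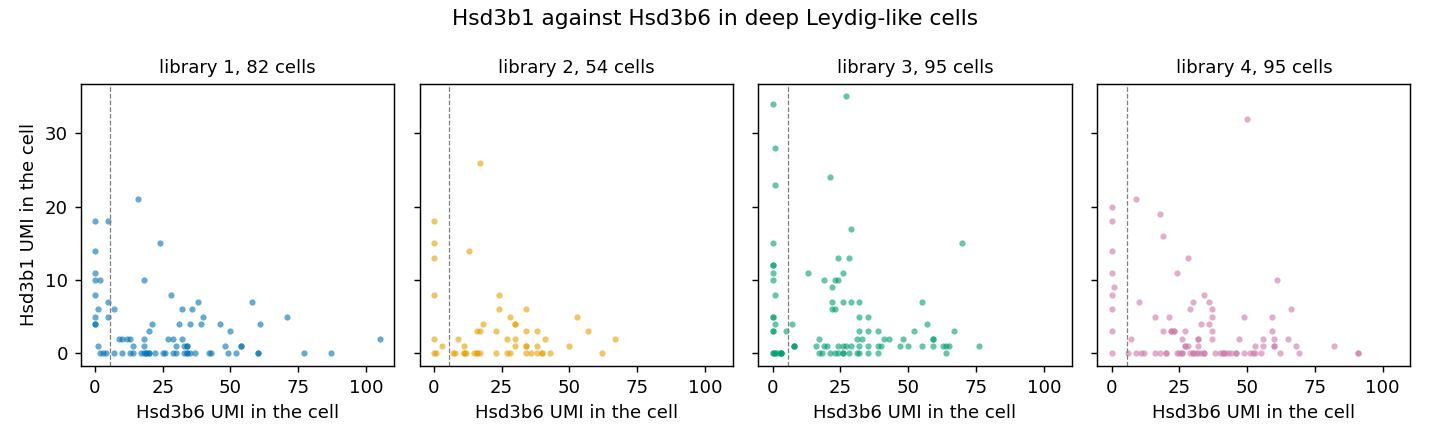
Hsd3b1 UMI (vertical) against Hsd3b6 UMI (horizontal) in each of the 326 deep Leydig-like cells, 1 panel per library, with a dashed line between 5 and 6 Hsd3b6 UMI. Left of the line stand 17, 8, 24 and 9 cells in libraries 1 to 4, many of them with Hsd3b1 UMI.

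The starts of both genes are shown to let the pair be compared. The windows are RefSeq sequence of GRCm38.p6, minus strand, 5′ to 3′, of the 250 bases before each gene start, chr3:98814444-98814693 for Hsd3b6 and chr3:98859795-98860044 for Hsd3b1. Capitals mark GATA words on either strand, that is the letters AGATAA or the variant AGATAG, and with a T in front the word TGATAA or the variant TGATAG in place of it. Of the GATA factors in the pathway list, Gata4 had a log2 ratio of 5.84 in Leydig-like over all other cells, and Gata6 had 0.08. Binding to these words was not measured.
Hsd3b6: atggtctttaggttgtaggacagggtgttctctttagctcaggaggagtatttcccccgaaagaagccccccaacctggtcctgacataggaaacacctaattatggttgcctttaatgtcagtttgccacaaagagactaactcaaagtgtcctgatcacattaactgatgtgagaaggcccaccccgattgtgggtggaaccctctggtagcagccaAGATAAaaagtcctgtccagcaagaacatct
Hsd3b1: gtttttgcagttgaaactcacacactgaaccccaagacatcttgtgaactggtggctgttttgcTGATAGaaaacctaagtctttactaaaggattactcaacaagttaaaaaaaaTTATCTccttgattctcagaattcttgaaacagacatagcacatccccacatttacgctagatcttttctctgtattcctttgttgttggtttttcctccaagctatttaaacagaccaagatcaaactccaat
Hsd3b6 had 1 GATA word, 31 bases before its start, and Hsd3b1 had 2, at 186 and 134 bases. Of the 7 windows of the 9 genes, 4 held such a word, and of all 32851 windows 26.5% did.

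The 2 clusters of Leydig-like cells differed in more than depth. As CPM, 7 of the 9 genes were higher in the deep cluster by the same rule, none was lower, and Cyp17a1 and Cyp11a1 were neither. The background was 37.3% of 6717 genes higher and 23.7% lower. Over all 6717 genes the median log2 ratio was 0.64, and over the 9 it was 1.52. The log2 ratio, deep over shallow, was 1.92 for Insl3, 1.77 for Scarb1, 1.66 for Star, 1.61 for Fdx1, 1.52 for Hsd3b6, 1.30 for Hsd17b3 and 1.29 for Hsd3b1. It was 0.96 for Cyp17a1, higher in 4 of 4 libraries but short of 2-fold. For Cyp11a1 it was 0.15, with levels of 1901 and 1716 CPM, and 2 libraries leaned each way.

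Beside this stand 2 other measures of the clusters. The 7 elongating spermatid markers summed to 56959 CPM in the shallow cluster (32979 to 62438 by library) and to 6794 in the deep cluster (5264 to 8230), and all 7 were detected in both. The 8 Leydig markers summed to 6698 CPM in the shallow and 12917 in the deep cluster. Sertoli markers summed to 1268 and 1755 CPM, with Wt1 at 0 in both, and macrophage markers to 22.3 and 127 CPM. Only 40 of the shallow cells had as many UMI as the shallowest deep cell, at 1908. The part of spermatid RNA, depth and mitochondrial share in the differences was not tested.

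Among deep cells, several levels differed with cell depth. From the lowest through the middle to the highest depth group of 108 or 109 cells, Cyp17a1 stood at 2948, 3766 and 4877 CPM and Cyp11a1 at 1439, 1666 and 2338. Star stood at 626, 658 and 853, Hsd17b3 at 756, 761 and 989 and Insl3 at 2564, 2620 and 2887. Scarb1 stood at 195, 232 and 242. These 6 were highest in the deepest cells, for Scarb1 with intervals that overlapped, and for Cyp17a1 and Cyp11a1 the intervals of the 3 groups did not overlap. Hsd3b6 was highest in the middle group, with 3244, 3837 and 3531. Hsd3b1 had 532, 443 and 502 and Fdx1 had 1854, 1953 and 1953, with no such order.

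Outside the Leydig-like class the RNA of the 7 restricted genes was at trace level. The 29303 other cells held 1165 UMI of the 7 together, 0.0398 per cell (0.0375 to 0.0421), and 904 cells (3.09%) had at least 1. Per cell they held 0.011 UMI of Cyp17a1, 0.0103 of Cyp11a1, 0.00805 of Hsd3b6, 0.00399 of Star, 0.00338 of Insl3, 0.00181 of Hsd17b3 and 0.00126 of Hsd3b1. In the deep Leydig cluster the same means were 32, 15, 28.1, 5.8, 21.5, 6.78 and 3.87. Of Insl3, 0.263% of outside cells had a UMI at a median depth of 2629 UMI, against 95.7% of deep cells at 7704.

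Insl3 outside the class was lowest in library 1 as well. Per outside cell, Insl3 stood at 0.00107, 0.00292, 0.00332 and 0.00606 UMI in libraries 1 to 4. The other 3 libraries did not keep the order of their Leydig-like cells, where library 2 was highest. Cyp17a1 stood at 0.0141, 0.00787, 0.00942 and 0.0121, with library 1 the highest. These are 4 libraries with no test.

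The trace rose more slowly than cell depth. The 7 genes together had 0.0232 UMI per cell in cells under 1000 UMI and 0.0669 in cells over 16000 UMI, whose median depths were 842 and 25056 UMI. As CPM the same bins stood at 27.5 and 2.06. Fdx1 went from 0.0967 to 3.9 UMI per cell and Scarb1 from 0.0325 to 0.985 between the same bins.

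**Figure D5:**
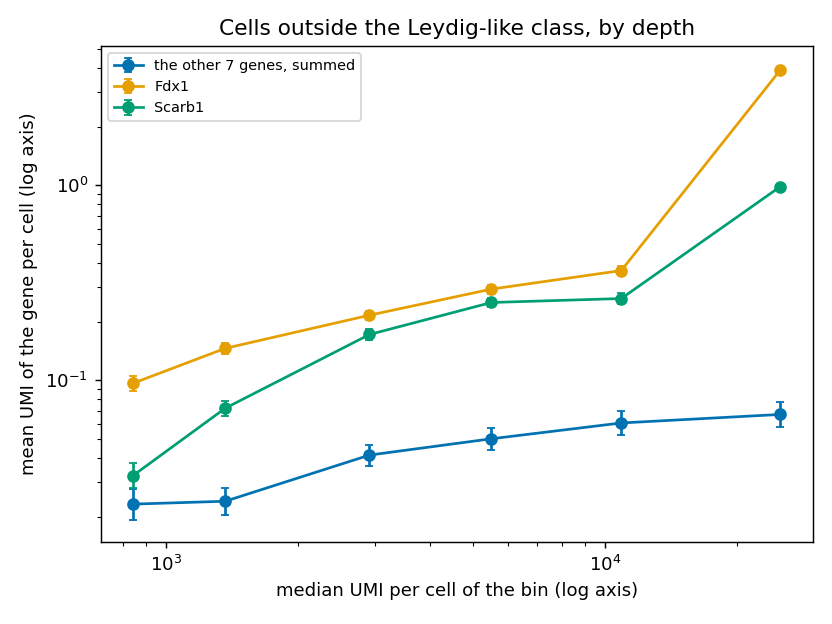
Mean UMI per cell (log axis) of Fdx1, of Scarb1 and of the other 7 genes summed, in kept cells outside the Leydig-like class, by bins of cell depth (median UMI of the bin, log axis), with exact Poisson 95% intervals. The 7 genes run from 0.0232 to 0.0669, and Fdx1 reaches 3.9 in the deepest bin.

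Pooled over all outside cells, the mix of the 7 genes resembled the shallow cluster in its share of Cyp11a1, but single classes differed. Cyp11a1 was 25.9% of the 7-gene UMI outside (23.4% to 28.5%), 26.2% in the shallow cluster and 13.3% in the deep cluster. By class the share ran from 4.48% in mesenchymal-like cells (0.933% to 12.5%) to 39.9% in elongating spermatid-like cells (33.9% to 46.2%). Sertoli-like cells had 15.6% and round spermatid-like cells 32.8%. Insl3 was 8.5% outside (6.96% to 10.2%), 11% in the shallow and 19% in the deep cluster, and without library 1 these shares were 11%, 15.5% and 23%. Star made up 117 of the 1165 UMI outside, a share with an interval of 8.38% to 11.9%, above the 3.56% of the shallow and 5.13% of the deep cluster. Cyp17a1 was 27.6% outside, 31.9% in the shallow and 28.3% in the deep cluster.

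The mix was also taken gene by gene, as the ratio of each gene's UMI to those of Insl3 in each class, set against that ratio in Leydig-like cells. The pooled Leydig ratio itself moves with the mix of libraries and clusters, since Insl3 was low in library 1 and in the shallow cluster, while the direction in a library used that library's own Leydig-like cells. Of 72 gene and class pairs with a value, 40 were at least 2-fold above it with the interval of the log2 ratio above 0 and the same direction in every library with 3 UMI or more of the gene, or 55.6%. Fdx1 and Scarb1 gave 20 of these, in all 10 classes each. The other 6 genes gave 20 of 52 pairs, with 7 for Star, 5 for Cyp11a1, 3 for Cyp17a1, 2 each for Hsd3b6 and Hsd17b3 and 1 for Hsd3b1. Of these 20, 4 were in endothelial-like cells and rested on 1 cell of library 1, and without that cell 16 pairs were above, none of them endothelial-like. With Cyp17a1 as the reference, 29 pairs of all 8 genes were above it, against 40 with Insl3. Fdx1 and Scarb1 were again above it in all 10 classes each, so the fall lay in the other genes. Early spermatocyte-like and endothelial-like cells had 0 Insl3 UMI, so their ratios are lower bounds set at 3 UMI.

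In 240 macrophage-like cells Hsd3b6 had 36 UMI, 50% of their 7-gene UMI, and was found in 12.1% of cells, at 0.15 per cell (0.105 to 0.208). Its ratio to Insl3 there was higher than in Leydig-like cells by 2.44 on the log2 scale (1.08 to 4.15), in 4 of 4 libraries, and by 1.94 with Cyp17a1 as reference. In 421 mesenchymal-like cells Star had 19 UMI, with a log2 ratio to Insl3 higher by 2.32 (1.24 to 3.42), and in 4272 Sertoli-like cells it had 25 UMI, higher by 1.82 (0.97 to 2.67), both in 4 of 4 libraries. Each rests on few UMI.

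The 8 Leydig markers summed to 109 CPM in macrophage-like cells (32.3 to 219 by library, Lhcgr at 0, 2 of 8 in at least 5% of cells). They summed to 1059 in mesenchymal-like cells (908 to 1441, Sult1e1 at 0, 3 of 8) and to 130.3 in Sertoli-like cells (106 to 156, none at 0, 1 of 8). At least 3 of the 8 markers were found in 32 of the 421 mesenchymal-like cells (7.6%) and in 0 macrophage-like cells. Their part in the levels of Hsd3b6 and Star was not tested.

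A few cells outside the class carried several of the genes at once. At least 3 UMI of at least 2 of the 7 genes were found in 5 cells, which were 3 mesenchymal-like, 1 Sertoli-like and 1 endothelial-like, each with 3 to 5 Leydig markers. The endothelial-like cell, of library 1, had 46 UMI of Hsd3b6 and 20 of Cyp17a1. It held nearly all such UMI of its class: the other 43 endothelial-like cells had 1 UMI each of Hsd3b6, Cyp17a1 and Star in all. Doublets were not removed here.

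Scarb1, the lipoprotein receptor, was more abundant per cell in endothelial-like than in Leydig-like cells. The 44 endothelial-like cells held 158 UMI, 3.59 per cell (3.05 to 4.2), against 1.8 in the deep Leydig cluster (1.65 to 1.95), at medians of 6700.5 and 7704 UMI. The endothelial-like value was 2.73, 2.11, 4.3 and 4.71 in libraries 1 to 4, and 1.39, 1.74, 2.08 and 1.89 in deep Leydig cells. Endothelial-like cells were thus higher in every library, in 37 of 44 cells with a UMI, and stood at 3.63 without the 1 cell named above. Round spermatid-like cells held 3540 of the 7044 UMI of Scarb1, and one of their clusters, of 400 cells, reached 2.95 per cell. That cluster had a median of 30861 UMI per cell, and as CPM it stood at 92.8, against 228 in the deep Leydig cluster.

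Fdx1 was found in germ cells as well. In the deep Leydig cluster it had 15.2 UMI per cell and was detected in all 326 cells. A late spermatocyte-like cluster of 321 cells had 9.89 per cell (9.55 to 10.2) and a UMI in 96% of cells, and unnamed clusters of 755 and 482 cells had 5.81 and 3.92. As CPM these 3 clusters stood at 214, 311 and 108, against 1929 in the deep Leydig cluster. Elongating spermatid-like cells were lowest at 12.8 CPM, or 0.104 per cell.

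Over the 30 clusters, the 7 restricted genes rose and fell together, with correlations of log2(CPM + 1) between 0.87 and 0.96. Fdx1 had 0.58 to 0.66 with them and Scarb1 0.34 to 0.53. Among other genes, those closest to the sum of the 9 were Tsc22d1 (0.892), Pld3 (0.880), Cml1 (0.873), Uqcr10 (0.870), Cox6a1 (0.869) and Tm7sf2 (0.868), followed by Tecpr1, Mrap, Iscu, Mt3, Hao2 and 9230104L09Rik between 0.865 and 0.845. Closest to Insl3 were Serpinb6b (0.976), Bhmt (0.968) and Klk1b21 (0.956).

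The genes closest to each of the others differed by gene. For Star they were Mt3 (0.969), Aqp2 and Mrap, for Cyp11a1 Sult1e1 (0.971), 9230104L09Rik and Hao2, and for Cyp17a1 Lcn2 (0.962), Hao2 and Bhmt. For Hsd3b1 they were Hao2 (0.956), Cela3b and Mt3, for Hsd3b6 Mt3 (0.959), Lcn2 and Apoc1, and for Hsd17b3 Hao2 (0.975), Klk1b22 and Ces1d. Fdx1 was closest to Iscu (0.970), which builds iron-sulfur clusters, then to Ift20 and Ndufs3. Scarb1 was closest to Fry (0.825), Kdm6b and Tlcd2. The clusters share libraries and depth, and these values are descriptions over 30 points.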

How the data were processed

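Testis cells of 4 samples were profiled with a droplet method, and the matrix of UMI counts per gene and barcode was used as the authors deposited it, per the file headers written by software version 3.0.2, which the notes name as Cell Ranger. The genome build was mm10 and reads were demultiplexed with bcl2fastq 2.19.1.403, as the submitters' processing notes list them. No source used here names the annotation release. The values are whole numbers, with no sign of normalization.

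Barcodes with at least 500 genes and at most 10% mitochondrial counts were kept. Counts per cell were scaled to 10000 and log-transformed, and 2000 variable genes, without the 9 genes, the pathway list and mitochondrial genes, gave 30 principal components and a shared-neighbour graph from 15 neighbours per cell, clustered with leidenalg 0.10.2 at resolution 1 (scanpy 1.11.5, Python 3.11.15). Clusters were named from marker lists, and clusters that failed the naming rules (6 of 30, 18.1% of cells) stayed unnamed. The 9 genes, the lists and the rule for named genes (all 9, the 8 highest and 8 lowest of the pathway list and 4 adrenal or aromatase genes, the 12 genes most like the sum and the 3 most like each gene) were chosen with earlier results of these data known. One of the highest pathway genes is left out of the text. Leaving the 9 genes out of the clustering does not make the classes independent of genes expressed with them.

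Levels are CPM of the summed counts, with exact Poisson intervals. Shares have exact Clopper-Pearson intervals and ratios exact binomial ones, all at 95% and covering counting error only. Thinning drew 1000 UMI per cell. No test was made between genotypes, since no suffix could be tied to a sample, and none over the 4 libraries, which are samples of unknown group; cells are not replicates. On simulated counts over 28692 genes for Leydig-like over all other cells, the call rule recovered 150 of 150 genes changed at least 3-fold and called 300 of 16763 unchanged genes tested. No doublet caller was used. Positions are from GENCODE M21 (GRCm38), promoters from RefSeq (GRCm38.p6), with none used for Star, Cyp17a1 and Scarb1.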

Additional observations from a re-analysis of the deposited data

Results flagged for a closer look

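Of the 2276 barcodes above the limit of 10% mitochondrial counts, which entered none of the comparisons, 92 had at least 3 of the 8 Leydig markers. They numbered 19, 18, 25 and 30 in libraries 1 to 4, had a median mitochondrial share of 12.9%, and held 1433 UMI of Cyp17a1, 1136 of Insl3, 1126 of Hsd3b6, 898 of Cyp11a1 and 272 of Star.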

How the results depend on the processing

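All 9 genes were higher in Leydig-like cells under each alternative tried for that count, except that 8 were, without Scarb1, with at most 5% mitochondrial counts and with the shallow cluster alone. The 50 pathway genes higher became 33 with at most 5% mitochondrial counts and 22 with the shallow cluster alone. The 2 lower became 1 with cells of at least 1000 genes, with at most 5% mitochondrial counts or with the deep cluster alone, 0 with the shallow cluster alone, and 1 to 2 when libraries were left out in turn. Insl3 outside Leydig-like cells, 0.00338 UMI per cell, was 0.00464 with at least 1000 genes, 0.00265 with at most 5% mitochondrial counts, 0.00547 with Leydig-like cells taken by markers, 0.00253 without cells of 3 or more Insl3 UMI, and 0.00241 to 0.00417 when libraries were left out in turn. The Hsd3b6 to Hsd3b1 ratio of 7.19 was 7.65 with at most 5% mitochondrial counts, 6.71 with at most 30%, 6.18 in the shallow cluster, and 6.47 to 8.34 when libraries were left out in turn. The cause of these shifts was not tested. The limit of 30%, the single clusters and the endothelial-like cell left out were chosen after seeing the data. The level of Insl3 in Leydig-like cells was 3081 CPM without library 1, against 2400. With at most 5% mitochondrial counts, which leaves 20 of the 326 deep cells, the levels were 1184 CPM for Insl3, 352 for Star, 226 for Hsd3b1, 1729 for Hsd3b6, 469.9 for Hsd17b3, 941 for Fdx1, 76.4 for Scarb1, 2487 for Cyp17a1 and 1498 for Cyp11a1.

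Between the 2 genotypes, no paired analysis was possible because the labels' replicate numbers belong to samples, and no suffix is tied to a sample. Leydig-like and other cells could be paired by library. They were compared by direction in each of the 4 libraries, and no paired test of that difference was run. Depth limits the restricted genes outside Leydig-like cells: 37 to 321 UMI per gene over 29303 cells set their levels, and single classes often held under 20.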
